A study of Mus musculus with 20 samples.

Results

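The comparison described here sets epididymal adipose tissue (epiAT) adipocytes of mice after 12 weeks of high-fat diet (HFD; group H) against those of age-matched mice on low-fat chow (group C). It was chosen by the diet and age labels alone, which gives 3 H and 3 C mice, 6 of the 20 libraries of the series, 1 library per mouse. All 6 mice were males of the cross AdipoERCre x NuTRAP, labelled as on a C576BL6 background, and all were 18 weeks old at collection. All had received tamoxifen by gavage before the diets began. Cre under the adiponectin promoter then switched on a GFP-tagged ribosomal protein, so that the ribosomes of adipocytes present at that time carried the tag, and adipocytes formed later from unlabelled precursors did not. Translating ribosome affinity purification sequencing (TRAP-seq) pulled the tagged ribosomes from lysates of frozen tissue and sequenced the polyadenylated RNA bound to them. The time of day of collection and the fasting state of these mice are not given in the sources used here.

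White adipocytes take up glucose and fatty acids, make and store triglyceride, and release fatty acids when catecholamines call for them. They make fatty acids from glucose through acetyl-CoA and malonyl-CoA (de novo lipogenesis), under the control of insulin and of 2 transcription factors, ChREBP (the product of Mlxipl) and SREBP-1 (Srebf1). When the depot expands, adipocytes enlarge, the surrounding collagen matrix is remodelled and macrophages gather around them.

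Counts per gene were as deposited, and levels are given as CPM, the count scaled to library size with TMM factors, in the order mouse 1, 2 and 3 of each group. The 6 libraries held 17132548 to 32201170 counts, so that 3 counts amounted to 0.0932 to 0.175 CPM before the TMM factors were applied. Several libraries stood apart from the others of their group. C mouse 3 had more of the adipocyte transcript Fabp4 (16224, 13965 and 103647 CPM in C and 32494, 23019.8 and 43169.9 CPM in H) and less of the nuclear RNA Malat1 (23848, 28951 and 4045 CPM in C and 3699.6, 3809 and 4855 CPM in H) than the other C mice, and its Malat1 level was that of the H mice. Genes of the epididymal epithelium, which adjoins this depot, were high in H mice 1 and 2 and not in H mouse 3, with Lcn8 at 0.218, 3.37 and 0.179 CPM in C and 231, 596 and 0.288 CPM in H, and summed to 1825, 35.3 and 26.3 CPM in C and 807, 3117 and 138 CPM in H. Crisp1 and Defb42 of this list were instead highest in C mouse 1. Of 15 such genes 6 rose, against 3.57% of all tested genes, and none separated the groups. Their median log2 fold change was 5.98. In the fit with H mouse 3 as the only H mouse it was -3.95, against -0.21 over all tested genes. Spermatid genes summed to 229, 87.4 and 25.5 CPM in C and 23.4, 23.1 and 31.5 CPM in H. The labelled cell type was borne out by Adipoq, Fabp4, Cfd and Lep, which were abundant in all 6 mice. They belong to a list of 20 adipocyte identity genes that was mixed, with 2 rises, 3 falls and 12 genes lower in H. Its median log2 fold change was -0.55, or 0.22 without C mouse 3. The part of these libraries in the results was not tested beyond leaving each of them out. In such pulldowns fewer cells of a type and less RNA per cell cannot be told apart. The p-values rest on the spread between mice within groups, estimated from all 20 libraries in 8 groups and not from these 6 alone. The counting was not stated to use strand, and 71 of the 189 genes whose values were tracked overlap another annotated gene, among them Srebf1 (Rai1), Stat5a (Stat3), Per3 (Camta1), Mest (Copg2), Pfkfb1 (Apex2), Gys1 (Ruvbl2), Nrg4 (Fbxo22), Csf1r (Hmgxb3), Timp1 (Syn1), Dennd2d (Cept1), and the pair Col4a1 and Col4a2, so that their reads may be shared.

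In H, 1392 of 21464 tested genes differed from C at the thresholds of the study, which ask for an unadjusted p under 0.01 and a change of 1 log2 unit or more in either direction (6.49% of the genes tested). These differentially expressed genes (DEGs) comprised 766 that rose (3.57%) and 626 that fell (2.92%), with median log2 fold changes of 2.11 and -1.99. After Benjamini-Hochberg adjustment 455 genes (2.12%) had an adjusted p under 0.05, of which 275 were higher and 180 lower in H. Dennd2d, Ifitm3 and Duoxa1 were among the genes with the lowest adjusted p, 0.000766. The split between rises and falls depends on how the libraries are scaled. Under DESeq2's size factors and test, 927 genes rose and 1224 fell. With relative log expression (RLE) factors in place of the trimmed mean of M values (TMM), 651 rose and 748 fell. "Rose" and "fell" below refer to DEGs, and each adjusted p is given beside them. Counts of rises and falls in the lists below are to be set against 3.57% and 2.92% of all tested genes.

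Most DEGs separated the groups mouse by mouse. They were called on these same mice, so this follows in part from the call and is not separate support. In 731 of the 766 genes that rose every H mouse lay above every C mouse (95.4%, against 13.4% of all tested genes). In 521 of the 626 that fell every H mouse lay below every C mouse (83.2%, against 10.6%). Calls that did not depend on any one mouse were fewer. Of the genes that rose, 317 (1.48% of the genes tested) were called again in each of the 6 fits that left out 1 mouse, and of those that fell, 198 (0.922%). Without H mouse 2, 334 rises and 331 falls lost their call, and without C mouse 3, 278 and 104. Over all tested genes there were 583, 586 and 875 rises without C mouse 1, 2 and 3. Without H mouse 1, 2 and 3 there were 595, 444 and 740. Falls numbered 389, 479, 941, 306, 313 and 417 in the same order. Counts in the lists below on leaving out 1 mouse are to be set against these totals. Below, a gene is said to hold without each mouse when it was called in all 6 of these fits. This does not mean a change in every mouse. Lcn8 held in this sense, although H mouse 3 had 6 counts of it and C mouse 2 had 68.

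Genes called without a mouse were then looked up in the mouse that had been left out. H mouse 1, which took no part in its own fit, lay above all C mice in 99.5% of 595 genes that rose and below them in 94.1% of 306 that fell. The left-out mouse lay beyond the whole other group in 91.5 to 99.5% of the rises and in 89.4 to 96.1% of the falls for 5 of the 6 mice. C mouse 3 was the exception, with 70.6% of the rises and 55.9% of the falls. Over all tested genes the same positions were taken by 18.8 to 39% of genes. The mice of the other group were the same in the fit and in the look-up, so only the left-out mouse was new. The share over all tested genes carries no such selection.

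**Figure D1:**
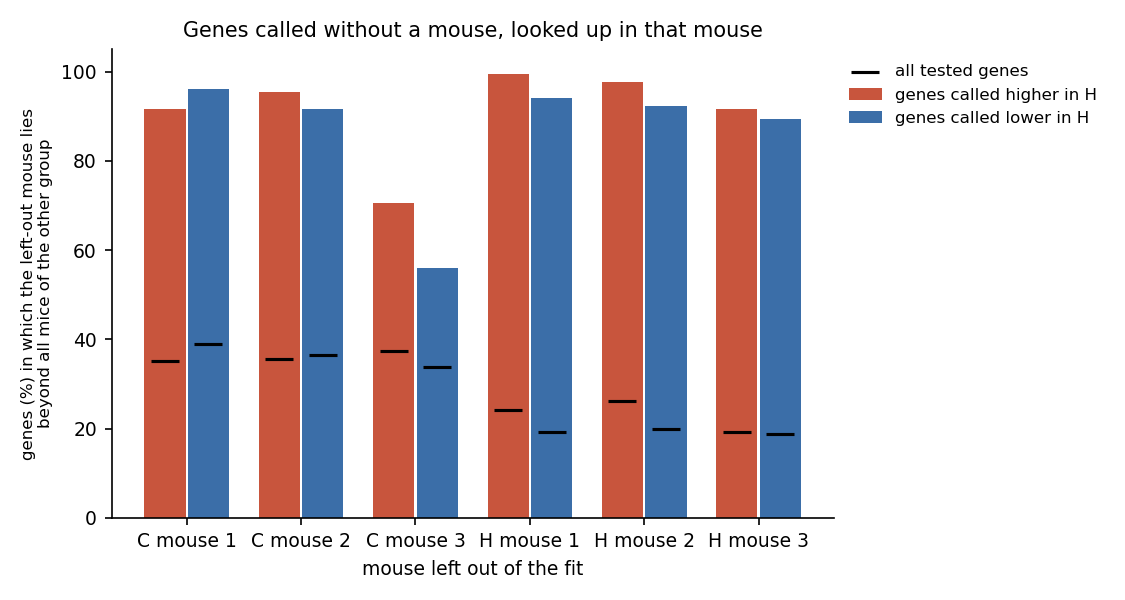
Bars give, for each mouse left out of the fit, the percentage of the genes called from the other 5 mice in which that mouse lay beyond every mouse of the other group, and black dashes give the same percentage over all tested genes. C mouse 3 has the lowest pair of bars, 70.6% and 55.9%.

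**Figure D2:**
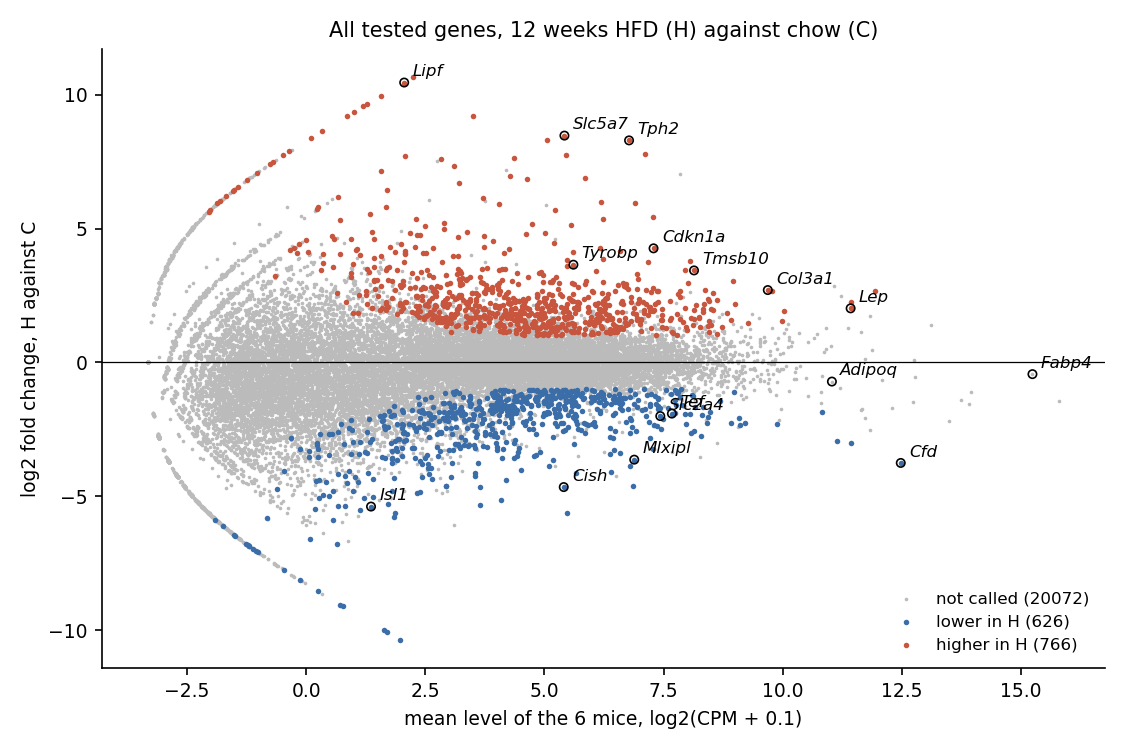
Each point is 1 of the 21464 tested genes, with its mean level in the 6 mice on the x axis (log2 of CPM plus 0.1) and the log2 fold change of H against C on the y axis. The 766 genes that rose are red, the 626 that fell are blue, and 16 genes named in the text are ringed.

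Annotated protein-coding genes made up 728 of the rises and 488 of the falls, with a median log2 fold change of -0.06 over the 16264 tested. Long non-coding RNAs lay lower in H, with 121 falls and 18 rises among 3333 tested and a median of -0.98. The summed level of 11 nuclear-retained RNAs was 30579.9, 37991 and 5197 CPM in C and 4615, 4707 and 5634 CPM in H, with C mouse 3 among the H mice, and their part in this difference was not tested.

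**Figure D3:**
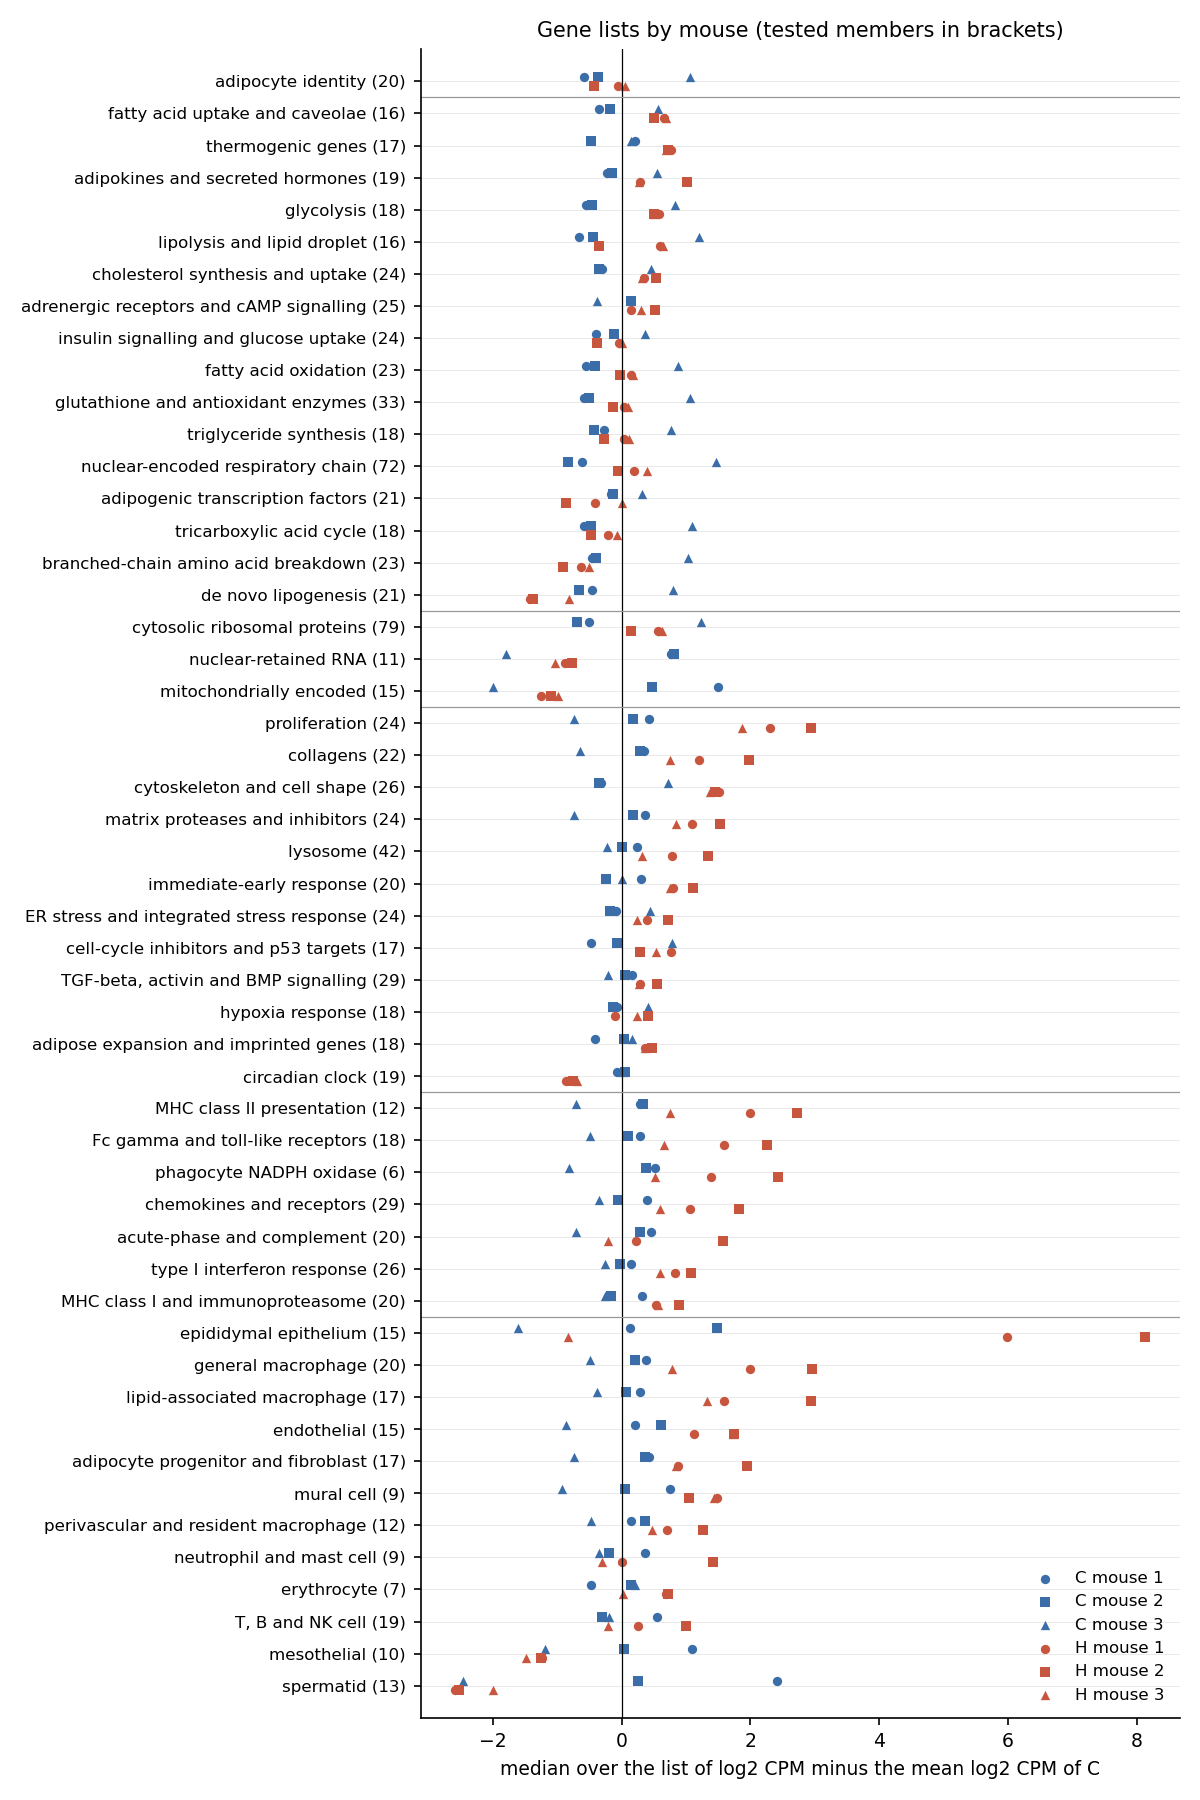
For each of 51 gene lists, the points give the median over its tested members of log2 CPM in each mouse minus the mean of the C mice, with the C mice in blue and the H mice in red. Macrophage, collagen, proliferation and cytoskeleton lists lie to the right in all H mice, lipogenesis and clock lists lie to the left, and C mouse 3 stands apart from C mice 1 and 2 in most metabolic lists.

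Of 21 measured genes of de novo lipogenesis 8 fell, against 2.92% of all tested genes, and none rose, 16 were lower in H, and the median log2 fold change was -1.39 against -0.15 over all tested genes. Among the same genes 5 fell without H mouse 1 or H mouse 2. Without C mouse 3 the median was -0.67, with 6 falls and 1 rise. The transcription factor ChREBP, which turns on lipogenic genes when glucose enters the cell, had the lowest p of the list. Its gene Mlxipl (ENSMUSG00000005373, GRCm38 chr5:135089890-135138382, plus strand) stood at 227, 307 and 122 CPM in C and 20.7, 8.64 and 23.4 CPM in H. All C mice exceeded all H mice, and the log2 fold change was -3.63 ± 0.69 (SE; adjusted p = 0.0116). Srebf1, which encodes the insulin-responsive factor SREBP-1, stood at 375, 423 and 466 CPM in C and 111, 102 and 117 CPM in H. The 3 mice of each group lay close together and the gene fell by 1.93 ± 0.47 on the log2 scale (adjusted p = 0.0405). The acetyl-CoA carboxylases make malonyl-CoA, the building block of fatty acids and, from the mitochondrial form, a brake on fatty acid oxidation. Acaca read 309.9, 340.0 and 744 CPM in C and 65, 43.8 and 115 CPM in H, a fall of 2.64 ± 0.57 log2 units (adjusted p = 0.0239). Acacb read 92.3, 293 and 191 CPM in C and 28.5, 28.2 and 52.6 CPM in H, with C mouse 1 nearest to H, and fell by 2.40 ± 0.55 (adjusted p = 0.0316). The desaturase gene Fads1 went from 150.1, 87.2 and 90.5 CPM in C to 39.3, 47.9 and 39.2 CPM in H (log2 fold change -1.37 ± 0.35, adjusted p = 0.0494). These 5 genes held without each mouse.

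The other 3 lipogenic falls rested on fewer mice. Pnpla3, a lipid-droplet protein gene under ChREBP and SREBP-1, stood at 1148, 1489 and 315 CPM in C and 225, 117 and 266 CPM in H (log2 fold change -2.28 ± 0.68, adjusted p = 0.0931), and H mouse 3 came close to C mouse 3. Pnpla3 was not called without C mouse 2, H mouse 1 or H mouse 2 (log2 fold change -2.70 to -1.86 over the 6 fits). Tkt, the transketolase of the pentose phosphate route, stood at 1416, 711 and 9904 CPM in C and 396, 260.3 and 929.6 CPM in H (log2 fold change -2.92 ± 0.90, adjusted p = 0.102), and the groups overlapped. Tkt was not called without C mouse 3, H mouse 1 or H mouse 2 (log2 fold change -3.61 to -1.01 over the 6 fits). The elongase gene Elovl6 stood at 77.1, 42.6 and 224 CPM in C and 29.3, 34.6 and 49.3 CPM in H (log2 fold change -1.60 ± 0.53, adjusted p = 0.131). Elovl6 was not called without C mouse 3, H mouse 1, H mouse 2 or H mouse 3 (log2 fold change -2.00 to -0.67 over the 6 fits). The fatty acid synthase gene Fasn was not called, with 644, 374 and 3634 CPM in C and 500.3, 307 and 575 CPM in H, and the desaturase gene Scd1 was not either, with 20955, 13454 and 25455 CPM in C and 5868, 6058 and 10916 CPM in H. For Fasn C mouse 3 stood far above the other 5 mice, which overlapped, whereas all H mice were under all C mice for Scd1.

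The DNA just upstream of Mlxipl is shown because this gene had the lowest p of the lipogenic list. The sequence below is the RefSeq promoter window on build GRCm38.p6, chr5:135089640-135089899 on the plus strand, intergenic up to the transcription start and then the first 10 bases of the first exon. An E-box, the letters CACGTG to which basic helix-loop-helix factors bind, is in capitals and begins 98 bases before the start.
Mlxipl: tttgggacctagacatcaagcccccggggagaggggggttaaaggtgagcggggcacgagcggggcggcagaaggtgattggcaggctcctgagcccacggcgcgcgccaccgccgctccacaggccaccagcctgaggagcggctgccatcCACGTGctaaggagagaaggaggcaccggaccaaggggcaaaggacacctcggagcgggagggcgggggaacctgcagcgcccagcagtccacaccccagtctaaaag
Each window of 250 bases before and 50 after a start was searched on both strands for the E-box, a sterol response element (TCACNCCAC), a PU.1 site (GAGGAAGT) and a cAMP response element (TGACGTCA). Among 32851 windows 7.15% held the E-box, 1.24% the sterol response element, 3.2% the PU.1 site and 1.79% the cAMP response element. Of the 8 lipogenic genes that fell 7 had a window, and 1 of these, Mlxipl, held the E-box, none the sterol response element, 1, Elovl6, the PU.1 site and 1, Pnpla3, the cAMP response element. The windows of Acaca, Acacb and Tkt lay 65766, 18983 and 772 bases from the annotated gene start, and the others at most 31. Other promoters of these genes were not searched. A match describes the letters of the window and not the binding of a factor.

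Of 18 genes for triglyceride synthesis 3 fell and 1 rose, with a median of -0.24. Without C mouse 3 the median was 0.25, with 3 rises and 3 falls. Gpat3, Gpat4 and Gpam encode enzymes that attach the first fatty acid to glycerol-3-phosphate, of which Gpat3 and Gpat4 fell and held without each mouse and Gpam was not called. Gpat3 read 279, 156 and 225 CPM in C and 53.1, 77.1 and 95.8 CPM in H (log2 fold change -1.55 ± 0.37, adjusted p = 0.0385). Gpat4 read 349, 250.2 and 378 CPM in C and 139, 109 and 156 CPM in H (log2 fold change -1.28 ± 0.31, adjusted p = 0.0416). In each the lowest C mouse was well above the highest H mouse. Mogat1 of the monoacylglycerol route fell from 28.3, 15.1 and 17.6 CPM to 3.88, 5.33 and 7.2 CPM (log2 fold change -1.90 ± 0.58, adjusted p = 0.0958). Mogat1 was not called without C mouse 1, H mouse 1 or H mouse 2 (log2 fold change -2.14 to -1.53 over the 6 fits). The glycerol channel gene Aqp7 went the other way, with 29.6, 44.8 and 98.7 CPM in C and 167, 157 and 145 CPM in H (log2 fold change 1.44 ± 0.47, adjusted p = 0.123). Aqp7 was not called without C mouse 1, C mouse 2, H mouse 1, H mouse 2 or H mouse 3 (log2 fold change 1.19 to 2.07 over the 6 fits). None of the 16 genes of lipolysis and the lipid droplet was called, and their median was 0.20, or 0.95 without C mouse 3 and -0.17 without H mouse 3.

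Insulin signalling and glucose uptake held 24 measured genes, of which 4 fell and none rose, and the list's median was -0.08, or 0.13 without C mouse 3. The glucose transporter GLUT4 is the one that insulin moves to the cell surface. Its gene Slc2a4 stood at 327, 209 and 293 CPM in C and 79.3, 41.6 and 85.3 CPM in H. The groups did not overlap, and Slc2a4 fell by 2.01 ± 0.41 on the log2 scale (adjusted p = 0.0166). Pik3r1, the regulatory subunit of phosphoinositide 3-kinase, stood at 476, 1204 and 1091 CPM in C and 174, 146 and 229 CPM in H (log2 fold change -2.34 ± 0.45, adjusted p = 0.0138). C mouse 1 was the lowest C mouse and still well above the highest H mouse. Tbc1d4, the Akt substrate through which insulin releases GLUT4 vesicles, stood at 59.4, 80.6 and 91.1 CPM in C and 30.4, 25.1 and 40.1 CPM in H (log2 fold change -1.27 ± 0.32, adjusted p = 0.0497). These 3 held without each mouse. Gys1, glycogen synthase, overlapped between groups, with 72.9, 119 and 219 CPM in C and 63.6, 23.1 and 75.7 CPM in H (log2 fold change -1.34 ± 0.46, adjusted p = 0.141). Gys1 was not called without C mouse 2, C mouse 3, H mouse 1 or H mouse 2 (log2 fold change -1.66 to -0.82 over the 6 fits). The insulin receptor gene Insr, at 226, 184 and 84.5 CPM in C and 58, 84.2 and 59.2 CPM in H, was not called (log2 fold change -1.29 ± 0.45, adjusted p = 0.151).

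Of 18 glycolysis genes 2 fell and none rose, while 12 were higher in H and the median was 0.22, or 0.85 without C mouse 3 and -0.11 without C mouse 2. In 2 genes every H mouse exceeded every C mouse, and in 2 the reverse held, against 13.4% and 10.6% of all tested genes. Pfkfb1, whose enzyme sets the level of fructose-2,6-bisphosphate and with it the pace of glycolysis, read 124, 127 and 72.1 CPM in C and 23.2, 16.6 and 28.4 CPM in H. All C mice lay above all H mice and the change was -2.24 ± 0.39 (adjusted p = 0.00801), holding without each mouse. Hk2, hexokinase 2, fell from 334, 259 and 1091 CPM to 86.5, 50.0 and 214 CPM (log2 fold change -2.27 ± 0.61, adjusted p = 0.063). Hk2 was not called without C mouse 3, H mouse 1 or H mouse 2 (log2 fold change -3.04 to -1.35 over the 6 fits).

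Breakdown of branched-chain amino acids, a source of acetyl-CoA for adipocytes, was lower in H in 21 of 23 measured genes, with a median of -0.79. Without C mouse 3, which lay above the other C mice in this list (per-mouse medians -0.47, -0.40 and 1.03 in C and -0.63, -0.91 and -0.51 in H), the median was -0.18. Only 2 of these were DEGs, and both held without each mouse. Without C mouse 1 there were 5 falls, and without C mouse 2 there were 4. With nuclear-retained RNA as a covariate, 8 of the 23 fell. Bckdhb encodes a subunit of the branched-chain ketoacid dehydrogenase, the committed step, and stood at 269, 299 and 206 CPM in C and 79.4, 67.6 and 84.9 CPM in H (log2 fold change -1.74 ± 0.42, adjusted p = 0.0413). Ivd, which acts next on leucine, stood at 159, 180.3 and 333 CPM in C and 86.6, 36.7 and 94.2 CPM in H (log2 fold change -1.63 ± 0.42, adjusted p = 0.053). In neither did the groups overlap. C mouse 3 had the highest level of Ivd and the lowest of Bckdhb among the C mice. The promoter window of Bckdhb, chr9:83924887-83925146 on the plus strand of GRCm38.p6, is shown as the gene with the lowest p of this list, and it held none of the 4 motifs. It ends 10 bases after the RefSeq start.
Bckdhb: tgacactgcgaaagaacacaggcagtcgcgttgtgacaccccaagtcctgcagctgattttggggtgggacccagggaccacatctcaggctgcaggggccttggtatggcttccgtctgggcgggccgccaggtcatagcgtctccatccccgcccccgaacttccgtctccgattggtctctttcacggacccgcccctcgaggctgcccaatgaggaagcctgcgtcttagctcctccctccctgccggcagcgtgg
The Ivd window held none of them either.

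Of 25 genes of adrenergic receptors and cAMP signalling 2 fell and 1 rose, against 2.92% and 3.57% of all tested genes, and the median was 0.16. The β1 receptor gene Adrb1 stood at 23, 17 and 9.58 CPM in C and 1.67, 1.74 and 3.84 CPM in H (log2 fold change -2.77 ± 0.48, adjusted p = 0.00801), with each H mouse under each C mouse, and held without each mouse. The β3 receptor gene Adrb3 also fell, from 320.1, 482 and 201 CPM to 121, 40.9 and 111 CPM (log2 fold change -1.88 ± 0.60, adjusted p = 0.116). Adrb3 was not called without C mouse 1, C mouse 2, H mouse 2 or H mouse 3 (log2 fold change -2.14 to -1.52 over the 6 fits). Adcy5, an adenylyl cyclase, rose from 30.3, 30.9 and 37.2 CPM to 87.9, 103 and 77.6 CPM (log2 fold change 1.45 ± 0.32, adjusted p = 0.025) and held without each mouse.

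Among 21 transcription factors of adipogenesis 4 fell and none rose, and all 4 held without each mouse. Besides Srebf1 these were the coactivators Ppargc1a and Ppargc1b, which drive mitochondrial genes, and Stat5a, which carries growth hormone signals. Ppargc1a stood at 18.4, 21.9 and 11.5 CPM in C and 5.4, 3.21 and 3.26 CPM in H (log2 fold change -2.12 ± 0.47, adjusted p = 0.0264). Ppargc1b stood at 38, 42.8 and 17.8 CPM in C and 7.19, 5.08 and 8.83 CPM in H (log2 fold change -2.23 ± 0.59, adjusted p = 0.0581). Stat5a stood at 37, 37.3 and 49.7 CPM in C and 19.8, 15.5 and 16.6 CPM in H (log2 fold change -1.25 ± 0.32, adjusted p = 0.0538). The groups did not overlap in any of these. Cish, a feedback inhibitor that STAT5 induces, was among the largest falls of the whole comparison, from 69.3, 137 and 38.1 CPM to 2.7, 2.56 and 4.42 CPM (log2 fold change -4.66 ± 0.81, adjusted p = 0.00801). The adipogenic master regulators were not called, with Pparg at 163, 231 and 483 CPM in C and 149, 133 and 201 CPM in H and Cebpa at 43.8, 77.6 and 402 CPM in C and 266, 135 and 277 CPM in H.

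The circadian clock list was lower to a like extent in the 3 H mice. Of its 19 genes 9 fell and none rose, with a median of -1.02, and the per-mouse medians were -0.87, -0.76 and -0.69 in H against -0.07, 0.05 and 0.02 in C, on the log2 scale relative to C. Of the PAR-bZIP factors that pass clock timing on to metabolic genes Tef and Hlf fell and Dbp was not called, with Tef at 334, 335 and 299 CPM in C and 70.8, 53.1 and 133 CPM in H (log2 fold change -1.91 ± 0.35, adjusted p = 0.00996) and Hlf falling by 2.48 ± 0.52 (adjusted p = 0.0192). Bhlhe40 and Bhlhe41 encode repressors of the clock's activators. Bhlhe40 stood at 126, 71 and 226 CPM in C and 18.3, 28.7 and 29.3 CPM in H (log2 fold change -2.47 ± 0.57, adjusted p = 0.032). Bhlhe41 fell from 52.2, 37.7 and 153 CPM to 15.3, 14.1 and 30.9 CPM (log2 fold change -2.01 ± 0.51, adjusted p = 0.0505). Bhlhe41 was not called without C mouse 3 (log2 fold change -2.46 to -1.16 over the 6 fits). The repressor gene Per3 stood at 359.9, 346 and 81.7 CPM in C and 36.5, 46.8 and 72.1 CPM in H (log2 fold change -2.34 ± 0.59, adjusted p = 0.0491), with H mouse 3 close to C mouse 3. Per2 fell by 1.52 ± 0.41 (adjusted p = 0.0624). Per2 was not called without H mouse 1 (log2 fold change -1.96 to -1.24 over the 6 fits). Cry2 fell by 1.02 ± 0.31 (adjusted p = 0.0999). Cry2 was not called without C mouse 1, C mouse 2 or H mouse 2 (log2 fold change -1.22 to -0.78 over the 6 fits). Nr1d2 overlapped between groups and fell by 1.32 ± 0.43 (adjusted p = 0.124). Nr1d2 was not called without C mouse 1, C mouse 2, H mouse 1 or H mouse 2 (log2 fold change -1.93 to -0.88 over the 6 fits). Arntl, which encodes the activator BMAL1, was not called, at 3.59, 6.65 and 7.79 CPM in C and 14.8, 14.1 and 7.05 CPM in H. Whether the diet groups were collected at one time of day cannot be told from the sources used here, and its part in these falls was not tested.

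**Figure D4:**
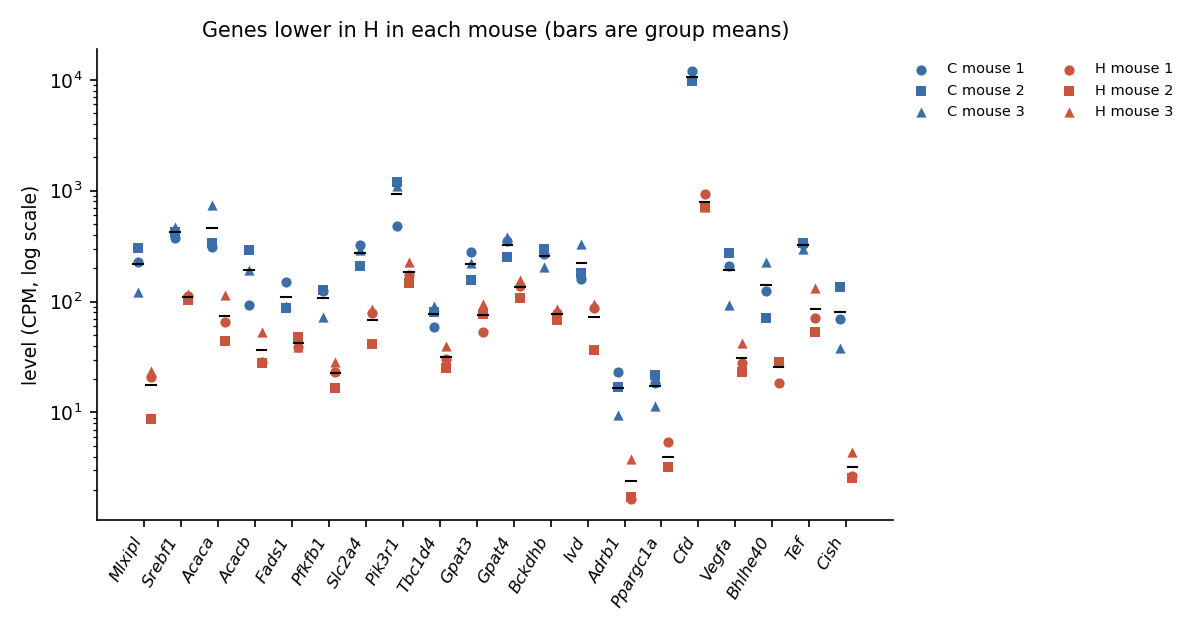
Levels in CPM on a log axis of 20 genes that fell, 1 point per mouse (C blue, H red, symbols for mice 1 to 3) and a bar at each group mean. In each of these genes the 3 H points lie below the 3 C points.

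The lists for uptake and burning of fatty acids were mixed. Among 16 genes of fatty acid uptake and caveolae 3 rose and 1 fell, with a median of 0.76, or 1.12 without C mouse 3. Angptl4, a secreted inhibitor of lipoprotein lipase that fatty acids induce, rose from 98.4, 120.4 and 213 CPM to 585, 773 and 360.1 CPM (log2 fold change 1.99 ± 0.43, adjusted p = 0.024) and held without each mouse. Gpihbp1, the endothelial anchor of lipoprotein lipase, stood at 72.1, 129 and 59.9 CPM in C and 469, 594 and 656 CPM in H (log2 fold change 2.72 ± 0.77, adjusted p = 0.075). Gpihbp1 was not called without C mouse 1 or C mouse 3 (log2 fold change 2.51 to 3.11 over the 6 fits). Ehd2, at the neck of caveolae, overlapped between groups (log2 fold change 1.21 ± 0.41, adjusted p = 0.142). Ehd2 was not called without C mouse 1, C mouse 2, H mouse 1 or H mouse 3 (log2 fold change 1.01 to 1.75 over the 6 fits). Pacsin3, also a membrane-curving protein gene, fell from 46.1, 59.6 and 71.4 CPM to 18.8, 6.9 and 21.9 CPM (log2 fold change -1.90 ± 0.44, adjusted p = 0.0333) and held. Of 23 fatty acid oxidation genes 2 rose and none fell, against 3.57% and 2.92% of all tested genes. Their median was -0.15, or 0.74 with 3 rises without C mouse 3. Cpt1a, which admits fatty acids to the mitochondrion, read 38.5, 28.6 and 51.1 CPM in C and 73.7, 99.8 and 88.3 CPM in H (log2 fold change 1.15 ± 0.33, adjusted p = 0.0767). Cpt1a was not called without C mouse 2 or H mouse 2 (log2 fold change 0.96 to 1.38 over the 6 fits). Acaa1b, a peroxisomal thiolase gene, read 5.77, 9.53 and 8.42 CPM in C and 64.8, 33.5 and 27.5 CPM in H (log2 fold change 2.41 ± 0.68, adjusted p = 0.0739). Acaa1b was not called without C mouse 1 or H mouse 1 (log2 fold change 1.95 to 2.63 over the 6 fits). In the list of cholesterol synthesis and uptake Dhcr7, of the last steps of synthesis, was among the genes that rose, with 4.36, 5.46 and 7.97 CPM in C and 18.6, 30.2 and 12.3 CPM in H (log2 fold change 1.78 ± 0.47, adjusted p = 0.0608). Dhcr7 was not called without H mouse 2 (log2 fold change 1.38 to 2.05 over the 6 fits). Of 17 thermogenic genes Alpl and Otop1 rose and Ppargc1a fell. Alpl stood at 2.07, 1.59 and 2.06 CPM in C and 7.98, 8.81 and 7.97 CPM in H (log2 fold change 2.11 ± 0.57, adjusted p = 0.0636) and held without each mouse. Otop1, a proton channel gene, had 2 counts in the C mice together and 4.79, 11.1 and 1.15 CPM in H, a ratio of 232 (95% exact binomial interval 64 to 1924). Otop1 was not called without C mouse 2, C mouse 3 or H mouse 2 (log2 fold change 6.22 to 9.99 over the 6 fits).

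Secreted products moved in both directions, with 4 rises and 5 falls among 19 measured genes. Cfd, the complement factor adipsin and an abundant adipocyte transcript (ENSMUSG00000061780, GRCm38 chr10:79890853-79892655, plus strand), stood at 12088, 9652 and 10132 CPM in C and 940.5, 706 and 709 CPM in H. The H mice lay close together and far below the C mice, and Cfd fell by 3.76 ± 0.69 on the log2 scale (adjusted p = 0.00996). Vegfa, the main angiogenic growth factor gene, fell from 210.3, 271 and 93 CPM to 27.8, 23 and 42 CPM (log2 fold change -2.63 ± 0.51, adjusted p = 0.0139). Nampt, an NAD synthesis enzyme that is also secreted, fell from 144, 129 and 254 CPM to 49, 55 and 74.4 CPM (log2 fold change -1.57 ± 0.35, adjusted p = 0.0269). Sfrp5, a decoy for Wnt ligands, rose from 19.2, 25.4 and 31.9 CPM to 253, 149.7 and 267 CPM (log2 fold change 3.13 ± 0.49, adjusted p = 0.005). These 4 and Angptl4 held without each mouse. Leptin signals fat mass to the brain, and Lep stood at 447, 667 and 2152 CPM in C and 5066, 3803 and 4370.5 CPM in H (log2 fold change 2.02 ± 0.66, adjusted p = 0.125). Lep was not called without C mouse 1, C mouse 2, H mouse 1, H mouse 2 or H mouse 3 (log2 fold change 1.72 to 2.98 over the 6 fits). Inhbb, an activin subunit, rose by 2.04 ± 0.51 (adjusted p = 0.048). Inhbb was not called without H mouse 2 (log2 fold change 1.49 to 2.30 over the 6 fits). Agt, angiotensinogen, fell by 1.80 ± 0.52 (adjusted p = 0.0817). Agt was not called without C mouse 2 or H mouse 3 (log2 fold change -2.01 to -1.59 over the 6 fits). Nrg4 fell by 2.24 ± 0.65 (adjusted p = 0.0836). Nrg4 was not called without C mouse 3, H mouse 1 or H mouse 2 (log2 fold change -2.46 to -1.81 over the 6 fits). Adiponectin was not called, with Adipoq at 1446, 1475 and 4895 CPM in C and 1795, 1669 and 1291 CPM in H.

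Of 33 glutathione and antioxidant genes 2 rose and 3 fell, against 3.57% and 2.92% of all tested genes. Extracellular superoxide dismutase, Sod3, rose from 13.9, 18.2 and 36.9 CPM to 225, 187 and 123 CPM (log2 fold change 2.96 ± 0.61, adjusted p = 0.0186), and Prdx4 of the endoplasmic reticulum from 29.7, 23.2 and 26.6 CPM to 58.2, 101 and 56.9 CPM (log2 fold change 1.44 ± 0.36, adjusted p = 0.0438). Secreted glutathione peroxidase, Gpx3, fell from 478, 789.6 and 1143 CPM to 163, 191 and 146 CPM (log2 fold change -2.27 ± 0.50, adjusted p = 0.0246). These 3 held without each mouse. The glutathione transferase Gsta4, which removes 4-hydroxynonenal, fell by 2.67 ± 0.71 (adjusted p = 0.0602). Gsta4 was not called without C mouse 3 (log2 fold change -3.01 to -2.04 over the 6 fits). Gsta3 fell by 2.56 ± 0.75 (adjusted p = 0.086). Gsta3 was not called without C mouse 3, H mouse 1 or H mouse 2 (log2 fold change -3.03 to -1.68 over the 6 fits).

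All 26 measured genes of the actin and tubulin cytoskeleton were higher in H, 9 rose and none fell, with a median of 1.33. In 19 every H mouse exceeded every C mouse, against 13.4% of all tested genes. Of these genes 4 rose without C mouse 1 and 5 rose without C mouse 2. The per-mouse medians of 1.51, 1.45 and 1.37 in H lay above that of C mouse 3 (0.72). Tmsb10, a thymosin that binds actin monomers (ENSMUSG00000079523, GRCm38 chr6:72957347-72958748, minus strand), stood at 42.8, 50.7 and 49.5 CPM in C and 576, 509 and 462 CPM in H. The 3 mice of each group were nearly alike and Tmsb10 rose by 3.44 ± 0.46 (adjusted p = 0.00207). Its relative Tmsb4x stood at 1222, 975 and 673 CPM in C and 4095, 4605 and 5031 CPM in H (log2 fold change 2.26 ± 0.57, adjusted p = 0.0479). The filament-severing cofilin, Cfl1, rose from 48, 103 and 205 CPM to 707, 419.6 and 479.8 CPM (log2 fold change 2.17 ± 0.59, adjusted p = 0.0655), and the capping protein Capg from 17.2, 16.3 and 5.46 CPM to 85.2, 138 and 48.8 CPM (log2 fold change 2.81 ± 0.64, adjusted p = 0.03). These 4 held without each mouse. Capg and Tmsb4x are also abundant in macrophages. Pfn1, profilin, rose by 2.28 ± 0.63 (adjusted p = 0.0693). Pfn1 was not called without C mouse 1 (log2 fold change 1.94 to 2.56 over the 6 fits). The tubulin Tuba1a stood at 93.6, 88.2 and 537 CPM in C and 1808, 806 and 1903 CPM in H (log2 fold change 2.65 ± 0.77, adjusted p = 0.0841). Tuba1a was not called without C mouse 1 or C mouse 2 (log2 fold change 2.25 to 4.05 over the 6 fits).

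The cell cycle inhibitor p21, which p53 induces, is encoded by Cdkn1a (ENSMUSG00000023067, GRCm38 chr17:29090976-29100727, plus strand). It stood at 5.99, 14.5 and 26 CPM in C and 464, 235 and 193 CPM in H. The lowest H mouse was far above the highest C mouse, and Cdkn1a rose by 4.26 ± 0.52 on the log2 scale (adjusted p = 0.00108), holding without each mouse. Of the other 16 measured cell-cycle inhibitors and p53 targets Bax and Trp53 rose, by 1.52 ± 0.44 (adjusted p = 0.0854) and 1.19 ± 0.35 (adjusted p = 0.087). Bax was not called without C mouse 1, C mouse 2 or H mouse 1 (log2 fold change 1.24 to 2.13 over the 6 fits). Trp53 was not called without C mouse 1, C mouse 3, H mouse 1 or H mouse 2 (log2 fold change 1.04 to 1.48 over the 6 fits). The list's median was 0.31, and 0.61 without C mouse 3, and without C mouse 1 or H mouse 1 only 1 of its genes rose. Proliferation genes were also higher, all 24 of them, with 11 rises, no fall and a median of 2.28. In 21 every H mouse exceeded every C mouse, against 13.4% of all tested genes. On leaving out 1 mouse, 5 rose without C mouse 3 or H mouse 2 and 7 rose without C mouse 1. Cdk1, the kinase that starts mitosis, read 1.85, 0.794 and 0.358 CPM in C and 12.2, 22.7 and 12.1 CPM in H (log2 fold change 3.97 ± 0.77, adjusted p = 0.0136). Mki67, a marker of cycling cells, read 3.38, 3.87 and 1.16 CPM in C and 30.0, 42.5 and 22.3 CPM in H (log2 fold change 3.49 ± 0.92, adjusted p = 0.0593). The replication helicase subunit Mcm6 read 7.41, 5.66 and 4.48 CPM in C and 13.5, 25 and 17.4 CPM in H (log2 fold change 1.67 ± 0.41, adjusted p = 0.0428). These 3 held without each mouse. Top2a, the topoisomerase of dividing cells, rose by 2.92 ± 0.88 (adjusted p = 0.0956). Top2a was not called without C mouse 1, C mouse 2, C mouse 3 or H mouse 2 (log2 fold change 2.61 to 3.25 over the 6 fits). Macrophage markers were higher in the same 3 H libraries (below), and their part in the rise of proliferation genes was not tested.

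Among 18 genes of adipose expansion and imprinting Sfrp5 and Mest rose. Mest, a hydrolase-fold gene known to follow adipocyte enlargement, stood at 7.57, 19 and 8.33 CPM in C and 151, 136 and 83 CPM in H (log2 fold change 3.41 ± 0.72, adjusted p = 0.0203) and held without each mouse. Of 29 genes of TGF-β, activin and BMP signalling Bmp6, Inhbb and Fstl1 rose, and Bmp6, a BMP ligand, went from 0.871, 2.08 and 2.01 CPM to 9.28, 11.4 and 12.4 CPM (log2 fold change 2.73 ± 0.62, adjusted p = 0.0302), holding without each mouse. Fstl1 was not called without C mouse 3 or H mouse 2 (log2 fold change 0.81 to 1.58 over the 6 fits). Of 18 hypoxia genes Adm, the vasodilator adrenomedullin, rose from 9.15, 8.34 and 6 CPM to 29, 26.7 and 27.5 CPM (log2 fold change 1.82 ± 0.43, adjusted p = 0.0345) and held, whereas Vegfa, Hk2 and Pdk1 fell. Pdk1 was not called without C mouse 3, H mouse 1, H mouse 2 or H mouse 3 (log2 fold change -1.75 to -0.74 over the 6 fits). Of 24 genes of endoplasmic reticulum and integrated stress Sdf2l1, a chaperone cofactor, rose (log2 fold change 2.72 ± 0.71, adjusted p = 0.0557) and held, and of 20 immediate-early genes Ier3 fell (log2 fold change -1.60 ± 0.49, adjusted p = 0.1). Ier3 was not called without C mouse 1, H mouse 1 or H mouse 3 (log2 fold change -1.84 to -1.27 over the 6 fits).

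Of 22 measured collagen genes 12 rose and none fell, and the median was 1.39. The groups were separated upward in 14, against 13.4% of all tested genes. In the fits that left out 1 mouse, 5 rose without H mouse 2. Without C mouse 3, 2 collagen genes fell, and without H mouse 2 the median was 0.90. The chains of collagen VI, the pericellular collagen of adipocytes, led by p. Col6a2 stood at 43.7, 45.4 and 30.0 CPM in C and 278, 392 and 141 CPM in H (log2 fold change 2.77 ± 0.41, adjusted p = 0.00363), and Col6a1 at 38.2, 37.7 and 21.2 CPM in C and 182, 371 and 90.9 CPM in H (log2 fold change 2.73 ± 0.54, adjusted p = 0.0151). Of the 5 basement membrane chains of collagen IV in the list Col4a1 and Col4a2 rose and Col4a3, Col4a4 and Col4a5 were not called, with Col4a1 at 257, 193 and 112 CPM in C and 747, 1129 and 646 CPM in H (log2 fold change 2.17 ± 0.44, adjusted p = 0.0166) and its head-to-head neighbour Col4a2 at 176, 133 and 79.3 CPM in C and 480.0, 641 and 421 CPM in H (log2 fold change 1.99 ± 0.42, adjusted p = 0.0198). The fibrillar collagen Col1a1 went from 75.7, 63.1 and 47.7 CPM to 341, 719.8 and 125 CPM (log2 fold change 2.67 ± 0.53, adjusted p = 0.0145). These 5 held without each mouse. Col3a1 stood at 263, 260.2 and 136 CPM in C and 864, 3047 and 376 CPM in H (log2 fold change 2.70 ± 0.67, adjusted p = 0.0468), with H mouse 2 far above the other H mice. Col3a1 was not called without H mouse 2 (log2 fold change 1.50 to 3.15 over the 6 fits). Fibroblast and progenitor markers moved in part with the collagens. Of 17 such genes, among them Col1a1, Col1a2 and Col3a1, 7 rose and none fell, while their summed level was 12862, 9469 and 6432 CPM in C and 5958, 11339 and 4779 CPM in H. Among the same genes 4 rose without C mouse 3 or H mouse 2. Without C mouse 3, 2 of them fell. The progenitor marker Pdgfra was not called (28.2, 26.2 and 17.6 CPM and 21.9, 50.1 and 16.8 CPM), and Pi16 and Gsn were lower in H without being called (adjusted p = 0.148 and 0.15). The part of fibroblasts in the collagen rise was not tested.

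Matrix proteases and their inhibitors showed 9 rises and 1 fall among 24 genes. Of these genes 1 rose without H mouse 2. Adamts4, an aggrecanase, rose from 3.16, 2.08 and 0.716 CPM to 14.8, 23.6 and 11 CPM (log2 fold change 3.05 ± 0.82, adjusted p = 0.0636) and held without each mouse. Mmp2, a gelatinase, rose by 2.39 ± 0.60 (adjusted p = 0.0491). Mmp2 was not called without H mouse 2 (log2 fold change 1.61 to 2.90 over the 6 fits). Its inhibitor Timp1 rose by 3.18 ± 0.82 (adjusted p = 0.0522). Timp1 was not called without H mouse 2 (log2 fold change 2.03 to 3.65 over the 6 fits). Mmp9 was the one that fell, from 8.39, 3.47 and 3.22 CPM to 0.912, 1.3 and 0.672 CPM (log2 fold change -2.37 ± 0.66, adjusted p = 0.0693). Mmp9 was not called without C mouse 1 or H mouse 3 (log2 fold change -2.65 to -1.74 over the 6 fits).

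Macrophage genes rose in the pulldown. All 20 measured general macrophage genes were higher in H, 13 rose and none fell, with a median of 2.11. Their summed level was 687, 606 and 352 CPM in C and 2259.9, 5554 and 1060.0 CPM in H, with H mouse 2 the highest and H mouse 3 the nearest to C, and no defining marker was at 0 in any of the 6 mice. On leaving out 1 mouse, 7 rose without H mouse 2. Tyrobp encodes DAP12, the signalling adaptor of myeloid receptors (ENSMUSG00000030579, GRCm38 chr7:30413760-30417585, plus strand), and stood at 8.17, 8.19 and 5.19 CPM in C and 83.3, 161 and 26.1 CPM in H (log2 fold change 3.65 ± 0.57, adjusted p = 0.00492). C1qb, a chain of complement C1q, stood at 22.2, 30.4 and 15 CPM in C and 231, 367 and 74.8 CPM in H (log2 fold change 3.31 ± 0.57, adjusted p = 0.00801). The endosomal glycoprotein Cd68 stood at 8.6, 11.1 and 8.78 CPM in C and 102, 285 and 31.5 CPM in H (log2 fold change 3.88 ± 0.78, adjusted p = 0.0164). In each the lowest H mouse, H mouse 3, still exceeded all C mice. Fcer1g, Lyz2, Csf1r and Ctss also held without each mouse, with log2 fold changes of 2.99, 3.06, 1.99 and 3.80 (adjusted p = 0.012, 0.0145, 0.0195 and 0.0284). Adgre1, the F4/80 antigen, rose from 18.3, 10.7 and 8.69 CPM to 48.5, 141 and 20.2 CPM (log2 fold change 2.48 ± 0.65, adjusted p = 0.0562). Adgre1 was not called without H mouse 2 (log2 fold change 1.45 to 2.92 over the 6 fits). TRAP-seq enriches adipocyte ribosomes and does not exclude RNA from other cells, so that macrophage RNA carried along and transcription of these genes in adipocytes cannot be told apart here, nor more cells from more RNA per cell.

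PU.1 is a transcription factor that myeloid cells need, and 3 of the 9 macrophage genes with a promoter window, Ctss, Cd53 and C1qc, held its letters, against 3.2% of all windows. Tyrobp has the lowest p of this list. The window of Ctss, the lysosomal cathepsin S, is shown instead, a choice made after the search (chr3:95526536-95526795, plus strand, GRCm38.p6, the last 10 bases in the first exon). The PU.1 letters, read on the minus strand, are in capitals and begin 2 bases before the start.
Ctss: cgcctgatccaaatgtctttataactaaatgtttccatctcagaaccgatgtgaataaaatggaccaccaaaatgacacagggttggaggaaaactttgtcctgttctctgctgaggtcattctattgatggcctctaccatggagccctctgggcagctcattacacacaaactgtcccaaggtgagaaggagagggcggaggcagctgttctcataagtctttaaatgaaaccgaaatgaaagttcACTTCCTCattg
Ctss itself stood at 46.2, 37 and 23 CPM in C and 297, 1034 and 151 CPM in H, so that H mouse 2 was far above H mouse 3 and H mouse 3 above all C mice.

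Lipid-associated macrophages surround dying adipocytes and take up their lipid. Of their 17 markers 8 rose and none fell, all 17 were higher in H and the median was 1.89. In the fits that left out 1 mouse, 3 rose without H mouse 2 and 5 rose without C mouse 2. Without H mouse 2 the median was 1.02. Lipa, lysosomal acid lipase, stood at 29.8, 29.7 and 25.3 CPM in C and 141, 352 and 71.1 CPM in H (log2 fold change 2.73 ± 0.59, adjusted p = 0.0234). Itgax, the integrin CD11c, stood at 7.19, 2.78 and 1.61 CPM in C and 33.8, 61.6 and 20.4 CPM in H (log2 fold change 3.33 ± 0.80, adjusted p = 0.0413). Both held without each mouse. Trem2, the lipid receptor that defines these cells, went from 5.66, 9.13 and 2.69 CPM to 73.4, 160.0 and 14.4 CPM (log2 fold change 3.83 ± 1.05, adjusted p = 0.0683). Trem2 was not called without C mouse 3 or H mouse 2 (log2 fold change 2.91 to 4.32 over the 6 fits). Gpnmb rose by 4.18 ± 1.13 (adjusted p = 0.0637). Gpnmb was not called without H mouse 2 (log2 fold change 3.11 to 4.65 over the 6 fits). Of 12 markers of perivascular and resident macrophages 1 rose, Folr2, a folate receptor, with 4.47, 7.34 and 4.12 CPM in C and 39.8, 102 and 19.9 CPM in H (log2 fold change 3.34 ± 0.54, adjusted p = 0.00568), and it held. Its neighbours in the list were not called, with Lyve1 at 10.5, 16.1 and 16.7 CPM in C and 20.1, 23.4 and 24.8 CPM in H and Pf4 at 44.8, 33.1 and 29.3 CPM in C and 66.7, 90.8 and 48.1 CPM in H.

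Of 29 chemokine and chemokine receptor genes 7 rose and none fell. Among the same genes 3 rose without H mouse 2 and 4 rose without C mouse 2. Ccl8 stood at 10.0, 5.76 and 5.28 CPM in C and 64, 313 and 33.5 CPM in H (log2 fold change 4.29 ± 0.80, adjusted p = 0.011). Ccl2, the main ligand of CCR2 on monocytes, stood at 7.52, 4.91 and 3.76 CPM in C and 50.6, 93.9 and 21.4 CPM in H (log2 fold change 3.36 ± 0.76, adjusted p = 0.03). Ccl6 rose by 2.21 ± 0.55 (adjusted p = 0.0478), and these 3 held without each mouse. Of 12 genes of MHC class II presentation 6 rose and none fell, with a median of 1.95. Of these genes 2 rose without H mouse 2 and 3 rose without C mouse 3. H2-Eb1 stood at 64.2, 77.4 and 56 CPM in C and 344, 659 and 148 CPM in H (log2 fold change 2.54 ± 0.55, adjusted p = 0.024), and the peptide-loading subunit H2-DMa rose by 2.30 ± 0.56 (adjusted p = 0.043). Both held without each mouse. Of 20 class I and immunoproteasome genes 3 rose, led by the disulfide isomerase Pdia3 (log2 fold change 1.80 ± 0.42, adjusted p = 0.0327), which held. On leaving out 1 mouse, 1 rose without H mouse 2.

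Receptors of innate immunity followed. Of 18 Fcγ and toll-like receptor genes 7 rose and none fell. In the fits that left out 1 mouse, 4 rose without C mouse 2, C mouse 3 or H mouse 2. Tlr8, an RNA sensor, stood at 0.381, 0.298 and 0.358 CPM in C and 6.92, 20.3 and 1.25 CPM in H (log2 fold change 4.76 ± 0.81, adjusted p = 0.00771). Fcgr3, an antibody receptor, went from 14.1, 18.9 and 5.55 CPM to 77.2, 204 and 31.4 CPM (log2 fold change 3.02 ± 0.61, adjusted p = 0.0164). Ly96, the MD-2 partner of TLR4, went from 2.4, 2.98 and 3.04 CPM to 12.6, 22.4 and 9.69 CPM (log2 fold change 2.41 ± 0.50, adjusted p = 0.018). Of 26 type I interferon response genes 25 were higher and 5 rose. Among the same genes 2 rose without C mouse 2, H mouse 1 or H mouse 2 and 3 rose without C mouse 1 or H mouse 3. Xaf1 stood at 9.15, 9.03 and 6.81 CPM in C and 32.2, 48.4 and 35.5 CPM in H (log2 fold change 2.22 ± 0.34, adjusted p = 0.00456), with the H mice close together. Ifi44 rose from 2.94, 2.48 and 0.537 CPM to 9.43, 13 and 10.7 CPM (log2 fold change 2.47 ± 0.68, adjusted p = 0.0693). Tlr8, Fcgr3, Ly96, Xaf1 and Ifi44 held without each mouse. Of the 6 genes of the phagocyte NADPH oxidase Cyba alone rose (log2 fold change 2.00 ± 0.69, adjusted p = 0.145). Cyba was not called without C mouse 1, C mouse 2, C mouse 3, H mouse 1 or H mouse 2 (log2 fold change 1.18 to 2.36 over the 6 fits). Of 20 acute-phase and complement genes Serpina3n, Serping1 and Lbp rose and C2 fell. Serpina3n, a protease inhibitor gene, stood at 34.6, 34.5 and 69.1 CPM in C and 205, 351 and 106 CPM in H (log2 fold change 2.26 ± 0.51, adjusted p = 0.0292). The complement inhibitor Serping1 rose by 2.24 ± 0.52 (adjusted p = 0.0326), while C2, complement component 2, fell from 132, 80.1 and 65.7 CPM to 13.2, 22.1 and 12.4 CPM (log2 fold change -2.54 ± 0.50, adjusted p = 0.0148). These 3 held without each mouse. Lbp was not called without C mouse 3 or H mouse 2 (log2 fold change 1.26 to 1.86 over the 6 fits).

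Of 42 lysosomal genes 11 rose and none fell, with a median of 0.66. Of these genes 5 rose without H mouse 2, 6 rose without C mouse 2 and 7 rose without C mouse 3. Without H mouse 2 the median was 0.41. Besides Lipa and Ctss, the glycosidases Gusb and Man2b1 held without each mouse. Gusb went from 32.8, 34.4 and 36.7 CPM to 103, 200.3 and 60.5 CPM (log2 fold change 1.81 ± 0.39, adjusted p = 0.0219). Man2b1 went from 34.4, 30.6 and 12.4 CPM to 103, 227 and 45.5 CPM (log2 fold change 2.28 ± 0.51, adjusted p = 0.0293). Of the 11 lysosomal genes that rose, Ctss, Lipa, Ctsd and Atp6v0d2 are also in the macrophage lists.

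Endothelial markers were higher in H with less spread over the H mice than the macrophage genes. Of 15, 6 rose and none fell, and in 13 every H mouse exceeded every C mouse, against 13.4% of all tested genes. The median was 1.60 and the summed level was 932, 1227 and 455 CPM in C and 2639, 3066 and 2744 CPM in H. On leaving out 1 mouse, 1 rose without C mouse 3 and 3 rose without C mouse 1 or H mouse 2. Tie1, an angiopoietin co-receptor, stood at 15.2, 33.3 and 8.06 CPM in C and 104, 110.4 and 90.3 CPM in H (log2 fold change 2.43 ± 0.57, adjusted p = 0.0357) and held without each mouse. Vwf, von Willebrand factor, rose by 1.81 ± 0.50 (adjusted p = 0.0698). Vwf was not called without C mouse 3 (log2 fold change 1.52 to 2.12 over the 6 fits). Pecam1 stood at 125, 176 and 48.2 CPM in C and 356, 569.5 and 427 CPM in H (log2 fold change 1.95 ± 0.62, adjusted p = 0.11). Pecam1 was not called without C mouse 1, C mouse 3, H mouse 2 or H mouse 3 (log2 fold change 1.58 to 2.37 over the 6 fits). Of 9 mural cell markers Kcnj8 rose (log2 fold change 2.13 ± 0.63, adjusted p = 0.087). Kcnj8 was not called without C mouse 3 or H mouse 2 (log2 fold change 1.87 to 2.35 over the 6 fits). S100a8, a neutrophil calprotectin subunit, rose from 0.871, 0.893 and 8.78 CPM to 157, 228 and 52.4 CPM (log2 fold change 5.36 ± 1.24, adjusted p = 0.0333) and held, and it was the one call among 9 measured neutrophil and mast cell markers. The partner subunit S100a9 was not called, at 0.109, 0.298 and 0.0895 CPM in C and 0.152, 0.598 and 0.48 CPM in H. Of 19 lymphocyte markers Il7r and Klrb1c rose, by 3.28 ± 0.95 and 3.14 ± 0.97 (adjusted p = 0.0805 and 0.102). Il7r was not called without C mouse 2, C mouse 3 or H mouse 2 (log2 fold change 2.47 to 3.77 over the 6 fits). Klrb1c was not called without C mouse 1, C mouse 2, C mouse 3 or H mouse 2 (log2 fold change 1.94 to 3.69 over the 6 fits). Of 10 mesothelial markers 3 fell and all were lower, led by Wt1, the transcription factor of the mesothelial layer, with 67.9, 37.7 and 14.1 CPM in C and 4.03, 6.09 and 2.98 CPM in H (log2 fold change -3.19 ± 0.67, adjusted p = 0.0198), which held. The summed mesothelial level was 478, 214 and 100 CPM in C and 77.1, 84.8 and 84.5 CPM in H, with C mouse 3 close to H. The mesothelial median was -1.47, or -0.94 with 1 fall without C mouse 1. Gpm6a was not called without C mouse 1, H mouse 1 or H mouse 2 (log2 fold change -2.22 to -1.06 over the 6 fits). Lrrn4 was not called without C mouse 1, C mouse 2, H mouse 1, H mouse 2 or H mouse 3 (log2 fold change -1.64 to -1.23 over the 6 fits).

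**Figure D5:**
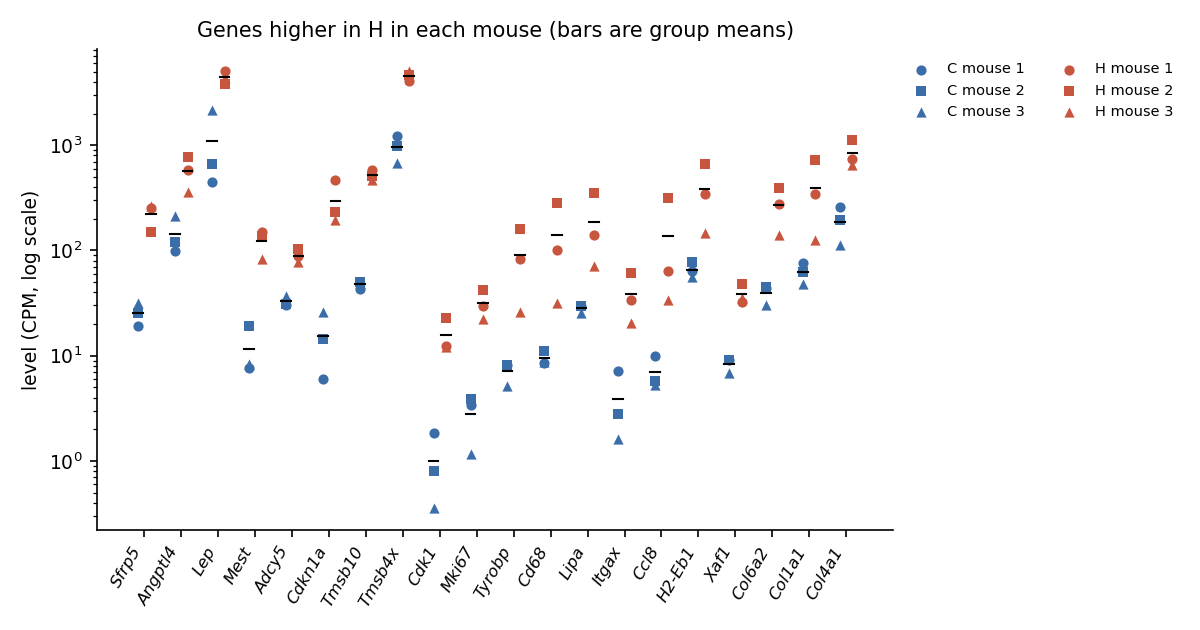
Levels in CPM on a log axis of 20 genes that rose, 1 point per mouse (C blue, H red, symbols for mice 1 to 3) and a bar at each group mean. In each of these genes the 3 H points lie above the 3 C points, with H mouse 3 the lowest for the macrophage genes and not for Tmsb4x, Lep or Sfrp5.

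No gene was called in the respiratory chain (72 nuclear-encoded genes, median -0.25), the tricarboxylic acid cycle (18 genes, 17 of them lower in H, median -0.54), the cytosolic ribosome (79 genes, median 0.19), among 15 mitochondrially encoded genes (median -1.74), 13 spermatid genes (median -3.74) or 7 erythrocyte genes (median 0.41). In the first 3 of these lists C mouse 3 lay above both other C mice and above all H mice, with per-mouse medians of 1.46, 1.09 and 1.23, and without it 4 ribosomal protein genes rose and the list medians were 0.89, 0.24 and 1.04. Without C mouse 3 the medians of the respiratory chain and the tricarboxylic acid cycle were therefore above 0 and not below it. The medians of the mitochondrially encoded and the spermatid genes were -0.83 and -2.15 without C mouse 1, that of the erythrocyte genes 0.26 without H mouse 1, and 2 mitochondrially encoded genes fell without C mouse 3. The mitochondrially encoded share of all counts was 23%, 17.9% and 3.73% in C and 4.6%, 4.95% and 7% in H. The groups overlapped, and the difference of -9.37 percentage points did not pass an exact permutation test (two-sided p = 0.4, 3 against 3 mice, where 0.1 is the smallest p possible).

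Among genes that separated the groups and held without each mouse, the largest changes were in genes at or near 0 in one group. By the rule for the largest rises, the 10 protein-coding genes were Lipf, Mxd3, Pvalb, Mstn, Slc5a7, Tph2, Cck, Kcnj14, Lat2 and Defb25. Lipf, gastric lipase, had no count in any C mouse and 4.18, 17.6 and 2.54 CPM in H. The H mean is at least 46.3-fold higher than the 3-count limit of the shallowest C library, taken before TMM scaling. Mxd3, a partner of MAX, also had no count in C and 2.21, 5.11 and 4.03 CPM in H, at least 21.6-fold higher by the same limit. Mstn, the muscle growth inhibitor myostatin, had no count in C and 1.44, 3.7 and 1.82 CPM in H, at least 13.3-fold higher. Pvalb, the calcium buffer parvalbumin, had 2 counts in the C mice together, against 20.6, 31.4 and 14.9 CPM in H, a ratio of 836 (95% exact binomial interval 231 to 6904). How pairs of reads were counted is not given, and 2 counts may stem from a single pair, which would widen this interval. Slc5a7 carries choline into cholinergic cells and stood at 0.218, 0.496 and 0 CPM in C and 65, 144 and 46.4 CPM in H (log2 fold change 8.47 ± 1.10, adjusted p = 0.00167). Tph2, the neuronal enzyme of serotonin synthesis, stood at 0.327, 0 and 1.7 CPM in C and 235, 378 and 41.6 CPM in H (log2 fold change 8.29 ± 1.35, adjusted p = 0.00568). Kcnj14, a potassium channel gene, stood at 0.218, 0.198 and 0.0895 CPM in C and 21, 17.3 and 16 CPM in H (log2 fold change 6.72 ± 0.96, adjusted p = 0.00293). Cck, the gut and brain peptide cholecystokinin, rose by 6.84 ± 1.58 (adjusted p = 0.0321), with H mouse 3 at 7.97 CPM against 68.1 and 71.9 CPM. Lat2, an adaptor of immune receptors, rose by 6.45 ± 1.39 (adjusted p = 0.0233). Defb25, a β-defensin of the epididymis, stood at 0.436, 0.198 and 0.448 CPM in C and 22.2, 54.3 and 0.672 CPM in H, a pattern that follows the epididymal genes, high in H mice 1 and 2 and near C in H mouse 3, and their part in its rise was not tested.

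Among the 10 largest falls by the same rule were Isl1, Wdr27, Rassf6, Accsl, Cish, Adamts20, Cyp2f2 and Dennd2d. Isl1, a LIM-homeobox factor, stood at 8.28, 5.76 and 0.448 CPM in C and 0.152, 0.163 and 0 CPM in H (log2 fold change -5.39 ± 1.30, adjusted p = 0.0413), with C mouse 3 close to H. Rassf6, of the Ras-association family, stood at 4.57, 2.78 and 5.64 CPM in C and 0.228, 0.0544 and 0.096 CPM in H (log2 fold change -5.05 ± 0.77, adjusted p = 0.00456). Cyp2f2, a cytochrome P450 gene, stood at 15, 24 and 26.2 CPM in C and 0.874, 0.272 and 2.59 CPM in H (log2 fold change -4.15 ± 0.91, adjusted p = 0.0254). Dennd2d, an exchange factor for Rab GTPases, stood at 123, 137 and 219.6 CPM in C and 8.59, 6.63 and 13.1 CPM in H (log2 fold change -4.09 ± 0.47, adjusted p = 0.000766), and the groups lay far apart. Wdr27, Accsl and Adamts20 fell by 5.38 ± 1.41, 5.05 ± 1.13 and 4.48 ± 1.07 (adjusted p = 0.0558, 0.0286 and 0.0413).

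Mice after 25 weeks of HFD (HH, 2 mice) and their 31-week-old chow controls (CC_l, 2 mice) carry the same transgenes and share no library with H and C, although the libraries of the 2 arms carry different prefixes in their labels, whose meaning is not given in the sources used here. HH against CC_l gave 1458 DEGs (6.79%), 1055 up and 403 down. Of the 766 genes that rose at 12 weeks, 394 were among the rises at 25 weeks (51.4% of the first list and 37.3% of the second). Of the 626 that fell, 120 were among the falls at 25 weeks (19.2% and 29.8%), and 3 genes were called in opposite directions. The genes that rose at 12 weeks were higher in HH in 92.7% of cases, against 42.5% of all genes, with a median log2 fold change of 2.05. Those that fell were lower in HH in 89.5%, against 57.3% of all genes, with a median of -1.08. A test of the difference between both diet effects called no gene at an adjusted p under 0.05 by edgeR's quasi-likelihood test (0% of 21464, lowest adjusted p 0.848), with 1242 genes at an unadjusted p under 0.05, 6 by the likelihood ratio test and 38 by DESeq2.

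For the lists, no test of the difference between the durations was made, and their values are set side by side. The clock list stood at -0.25 at 25 weeks, against -1.02 at 12 weeks, and at 25 weeks Per3 stood at 0.20 and Bhlhe40 at -0.08. De novo lipogenesis stood at -0.78 at 25 weeks, with Acaca at -2.29 and Srebf1 at -0.15. Macrophage genes had a median of 3.54 with 18 rises among 20 genes, endothelial genes 2.63 with 10 among 15, and collagens 2.34 with 14 among 22. Proliferation genes stood at 1.16 with 3 rises among 24. Mesothelial genes stood at 0.42 at 25 weeks with no rise or fall, against -1.47 at 12 weeks. Cdkn1a stood at 1.22 at 25 weeks against 4.26 at 12, a difference with an unadjusted p of 0.000713 and an adjusted p of 0.848.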

How the data were processed

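Adipocyte ribosome-bound RNA of 20 mice in 8 groups was sequenced, of which the 3 H and 3 C mice are compared here and the 2 HH and 2 CC_l mice serve for comparison. The authors deposited 1 table of raw counts per gene for all libraries. Per their processing notes and methods, reads passed FastQC 0.11.9 and Trim Galore 0.6.6, were aligned to mm10 with HISAT2 2.2.1 and were counted with Subread 2.0.1. Which annotation and strand setting were used, and how pairs of reads were counted, is not given in the sources used here, and 74.4 to 89.2% of the non-zero counts per C or H library were even numbers. Symbols and positions came from GENCODE vM21 (GRCm38), which matched 98.2% of 46078 gene IDs.

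Counts were fitted with edgeR 4.0.16 (R 4.3.3), all 8 groups together, filterByExpr (21464 genes kept), TMM factors and the quasi-likelihood test, with the contrast H minus C. A DEG had an unadjusted p under 0.01 and changed by 1 log2 unit or more, and p-values were adjusted over all tested genes (Benjamini-Hochberg). SE is the log2 fold change divided by the square root of F. The fit was tested on simulated data of 20619 genes for the contrast H against C, where it called 31 of 100 genes changed by 1.5 log2 units, 75 of 100 changed by 3, none with the wrong sign, and 177 of 20419 unchanged genes. Libraries of C and H held 17132548 to 32201170 counts, and limits and intervals from counts cover counting error only. They treat each count as independent. If both reads of a pair were counted, the fold limits would be lower and the intervals wider.

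The 51 gene lists and the genes named were chosen with earlier results of these data known. Named were the 10 largest rises and falls among protein-coding DEGs that separated the groups, held without each mouse and reached 1 CPM, and in each list up to 5 members with the lowest p and those needed to say what the list holds. Uncalled genes, members beyond the first 5 and genes in no list were named after their values were seen. Alternatives were RLE factors, DESeq2 1.42.0, the likelihood ratio test, no filter, fewer or more libraries, a replicate block, halved counts, a nuclear-RNA covariate and leaving out each mouse. Promoter windows were RefSeq's on GRCm38.p6. Some members of the lists and of the largest falls are not reported here.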

Additional observations from a re-analysis of the deposited data

How the results depend on the processing

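The number of DEGs (1392) was 2151 with DESeq2, 2092 with the likelihood ratio test, 2492 with no filter, 453 where an adjusted p under 0.05 was also asked for, and 757 to 1816 on leaving out 1 mouse. The 455 genes with an adjusted p under 0.05 became 2011 with DESeq2, 1300 with the likelihood ratio test, 1677 with no filter, 243 with the 6 libraries alone, 964 with CC_s mice added to the controls, and 76 to 583 on leaving out 1 mouse. H mouse 3 as the only H mouse, an alternative chosen after seeing the data, left 252 DEGs and 0 genes with an adjusted p under 0.05. The cause of these shifts was not tested, except that fewer mice entered some fits.

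The split of 766 rises and 626 falls became 927 and 1224 with DESeq2, 1121 and 1371 with no filter, 1178 and 478 with CC_s as added controls, 964 and 507 with the nuclear-RNA covariate, and 595 and 306 without H mouse 1. The median of all genes was -0.15, against -0.23 with RLE factors and 0.14 with the covariate, so changes are to be read relative to these. The main fit did not pair mice by replicate number. Whether the numbers mark pairs cannot be decided from correlations of deviations, because deviations from a mean of 3 mice are tied to each other. Same-numbered C and H mice had correlations of deviations of -0.167, 0.187 and 0.192. C mouse 2, C mouse 3 and H mouse 3 correlated best with their own number, and the other mice did not. A replicate block gave 1032 DEGs and 175 genes with an adjusted p under 0.05.

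The difference between 12 and 25 weeks, 0 genes by edgeR, was 38 genes with DESeq2, 6 with the likelihood ratio test and 207 with no filter. On leaving out 1 mouse the log2 fold change ranged from -1.003 to 0.12 for Adipoq and from -0.87 to 1.12 for Fabp4, both highest without C mouse 3, and from -0.31 without H mouse 2 to 0.59 without H mouse 3 for Pdgfra. Cebpa was -0.17 with CC_s as added controls. Pdgfra was -0.51 with H mouse 3 alone, where Klrb1c was -1.04 and Lcn8 -2.10. Adipoq, Fabp4, Cebpa, Pdgfra, Klrb1c and Lcn8 had the opposite sign in these fits to that with all mice. Of the 867 list medians under all alternatives 58 moved by more than the spread between mice, 14 of them without C mouse 3. Low counts limit the genes near 0.1 CPM, where 3 counts lie.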

Other observations

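Genes outside the lists, chosen after their values were seen, include several of the most significant changes. Ifitm3, an interferon-inducible membrane protein gene, stood at 46, 47.6 and 44.7 CPM in C and 251, 358 and 260.3 CPM in H (log2 fold change 2.65 ± 0.31, adjusted p = 0.000766). Duoxa1, the maturation factor of the oxidase DUOX1, stood at 0.98, 0.496 and 0.537 CPM in C and 19.1, 20.1 and 12.8 CPM in H (log2 fold change 4.68 ± 0.55, adjusted p = 0.000766) and overlaps Duoxa2. Ucp2, a mitochondrial carrier gene, stood at 15, 26.2 and 18.4 CPM in C and 321, 355 and 126 CPM in H (log2 fold change 3.75 ± 0.51, adjusted p = 0.00207). All 3 separated the groups and held without each mouse.

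Sparc, a collagen-binding glycoprotein gene, stood at 908, 1187 and 1139 CPM in C and 6644, 8230.0 and 5474 CPM in H (log2 fold change 2.65 ± 0.48, adjusted p = 0.00922). Serpinf1, which encodes PEDF, stood at 43.6, 48.2 and 33.8 CPM in C and 215, 369 and 193 CPM in H (log2 fold change 2.63 ± 0.35, adjusted p = 0.00197). Pltp, phospholipid transfer protein, stood at 0.871, 2.88 and 1.25 CPM in C and 48.7, 79.5 and 12.4 CPM in H (log2 fold change 4.81 ± 0.67, adjusted p = 0.00232), and overlaps Ctsa. Oxtr, the oxytocin receptor, rose from 24, 27.3 and 27.4 CPM to 176, 242 and 131 CPM (log2 fold change 2.80 ± 0.45, adjusted p = 0.00568). Ass1, which makes argininosuccinate, rose by 4.71 ± 0.76 (adjusted p = 0.00568). The H mice exceeded the C mice in each of these 5 genes, and all held without each mouse.

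The carboxylesterases Ces1d and Ces1f, neighbouring paralogs between which reads could be shared, stood at 774, 668 and 1175 CPM in C and 181, 166 and 266 CPM in H for Ces1d and 123, 92.8 and 263 CPM in C and 15, 15.4 and 19.6 CPM in H for Ces1f, with log2 fold changes of -2.09 ± 0.51 and -3.26 ± 0.48 (adjusted p = 0.0422 and 0.00363). Their values at 25 weeks were -0.07 and -0.07. Fam13a stood at 104, 171 and 251 CPM in C and 15.8, 11.6 and 22.9 CPM in H (log2 fold change -3.38 ± 0.50, adjusted p = 0.00363). Esr1, the oestrogen receptor α, fell from 85.8, 97.2 and 229.6 CPM to 38.6, 24.7 and 42.9 CPM (log2 fold change -1.96 ± 0.45, adjusted p = 0.0306). Fkbp5, a glucocorticoid-induced chaperone, fell from 82.1, 107 and 106 CPM to 39.8, 29.5 and 51.5 CPM (log2 fold change -1.29 ± 0.31, adjusted p = 0.0416). Each held without each mouse.

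Among gene families grouped by symbol and looked at after their values were seen, that of the tumour necrosis factor receptors had 3 rises and no fall in 20 measured genes, against 3.57% rises over all tested genes, and other families had like counts. Tnfrsf23 stood at 0.545, 0.496 and 0.806 CPM in C and 12.1, 12.9 and 6.91 CPM in H (log2 fold change 4.09 ± 0.56, adjusted p = 0.00207), and Tnfrsf12a, the TWEAK receptor, at 4.25, 6.65 and 15.7 CPM in C and 54.5, 43.5 and 46.3 CPM in H (log2 fold change 2.44 ± 0.53, adjusted p = 0.0255). Tnfrsf22, a paralog beside Tnfrsf23, rose by 1.97 ± 0.42 (adjusted p = 0.0215). All 3 held without each mouse.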
